A study of Mus musculus with 2 samples.

Results

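The genes Rax, Six3, Six6, Vax1, Vax2, Tbx2, Tbx3 and Tbx5 encode transcription factors of the eye field, the optic vesicle and the ventral and dorsal optic cup. These 8 genes, out of 43346 Ensembl genes in the tables, were chosen by their symbols, with TPM values of several of them in these same libraries already known. Their levels and their ratios between libraries are therefore given as descriptions, with no test. The study sequenced total RNA from forebrain of B6NCrl mouse embryos at embryonic day 10.5, of both sexes pooled, with no mutant, treatment or second tissue. Its only group has 2 libraries, each from 10 ng of RNA. For replicate 1 the forebrains of 69 embryos were pooled, and for replicate 2 those of 51 others. The libraries held 41537304 and 38012457 gene counts, and 14032 genes were at 1 TPM or more in both. TPM is a length-adjusted share of all transcripts of a library. Lhx2, a defining gene of the early forebrain, was at 91.69 and 98.32 TPM in replicates 1 and 2. All comparisons below are between genes within a library or between the 2 pools, and intervals cover counting error only.

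The eye begins as a single field of cells in the anterior neural plate, which then splits and bulges out on both sides of the forebrain as the optic vesicles. Rax, Six3 and Six6 are homeodomain factors of that field. Rax is needed for an optic vesicle to form at all, Six3 also acts in the rest of the anterior forebrain, and Six6 is used in the neural retina, the hypothalamus and the pituitary. Vax1 and Vax2 are related homeodomain factors of the ventral side, Vax1 mainly in the optic stalk and the preoptic area and Vax2 in the ventral retina. Tbx2, Tbx3 and Tbx5 are T-box factors of the dorsal retina, where they act under BMP signals, and each is also used outside the eye, Tbx2 and Tbx3 in the ventral hypothalamus and Tbx5 in heart and forelimb.

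Of the 8 genes 6 were at 1 TPM or more in both libraries, and Vax1 and Tbx5 were under it in both. Mean levels ran from 0.145 TPM for Tbx5 to 12.15 TPM for Six3, with a median of 4.03. In replicate 1 the order was Six3 (11.09 TPM), Tbx3 (9.52), Rax (3.47), Vax2 (2.81), Six6 (2.71), Tbx2 (2.7), Vax1 (0.42) and Tbx5 (0.03). The authors' table gives a lower and an upper bound for each TPM, and in that order the bounds of neighbours overlapped in 4 of 7 pairs: Six3 with Tbx3, Rax with Vax2, Vax2 with Six6, and Six6 with Tbx2. In replicate 2 the order was Six3 (13.21 TPM), Rax (9.79), Tbx3 (7.88), Six6 (6.85), Vax2 (3.75), Tbx2 (2.1), Vax1 (0.89) and Tbx5 (0.26). There the bounds overlapped in 2 of 7 neighbouring pairs, Rax with Tbx3 and Tbx2 with Vax1. Six3 was first and Vax1 and Tbx5 were last in both libraries, while Rax stood below Tbx3 in replicate 1 and above it in replicate 2, and Six6 likewise with Vax2.

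**Figure D1:**
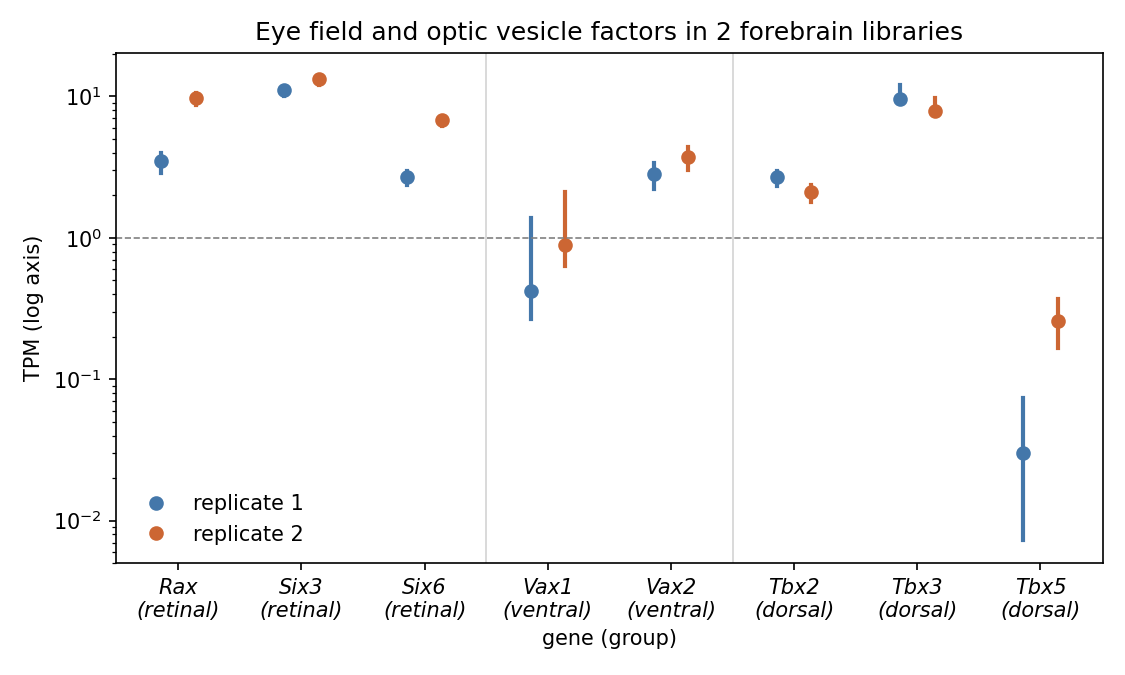
TPM on a log axis of each of the 8 genes in replicate 1 (blue) and replicate 2 (orange), with vertical lines for the deposited lower and upper bounds and a dashed line at 1 TPM. The points of the 2 libraries are far apart for Rax (3.47 and 9.79 TPM), Six6 (2.71 and 6.85) and Tbx5 (0.03 and 0.26), and close for Six3 (11.09 and 13.21).

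Between the 2 pools 4 of the 8 genes differed by more than 2-fold, all of them higher in replicate 2: Rax, Six6, Vax1 and Tbx5. From deposited TPM plus 0.1 the number was 3, as Vax1 then had a log2 ratio of 0.93. Of all 17174 genes with a mean expected count of 10 or more, 3.28% differed by more than 2-fold in either direction and 1.14% were higher by that much in replicate 2. These shares depend on how many reads a gene has. Among genes with a mean count of 10 to under 30, where Vax1 and Tbx5 lie, 18.5% passed 2-fold. From 30 to under 300, the range of Rax, Vax2 and Tbx2, it was 3.0%, and from 300 to under 1300, the range of Six6, Six3 and Tbx3, it was 0.152%. The count of Vax1 and Tbx5 past 2-fold thus stands against the widest of these backgrounds and Six6 against the narrowest. The share in the range of Rax was near that over all genes. In all, 6 of the 8 genes were higher in replicate 2 and 2 were lower. The 95% exact binomial interval of the ratio excluded 1 for 6 of the 8, 4 of them higher in replicate 2 and 2 lower. It did so for 30.8% of all genes averaging at least 10 counts, since that interval holds no variation between pools.

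**Figure D2:**
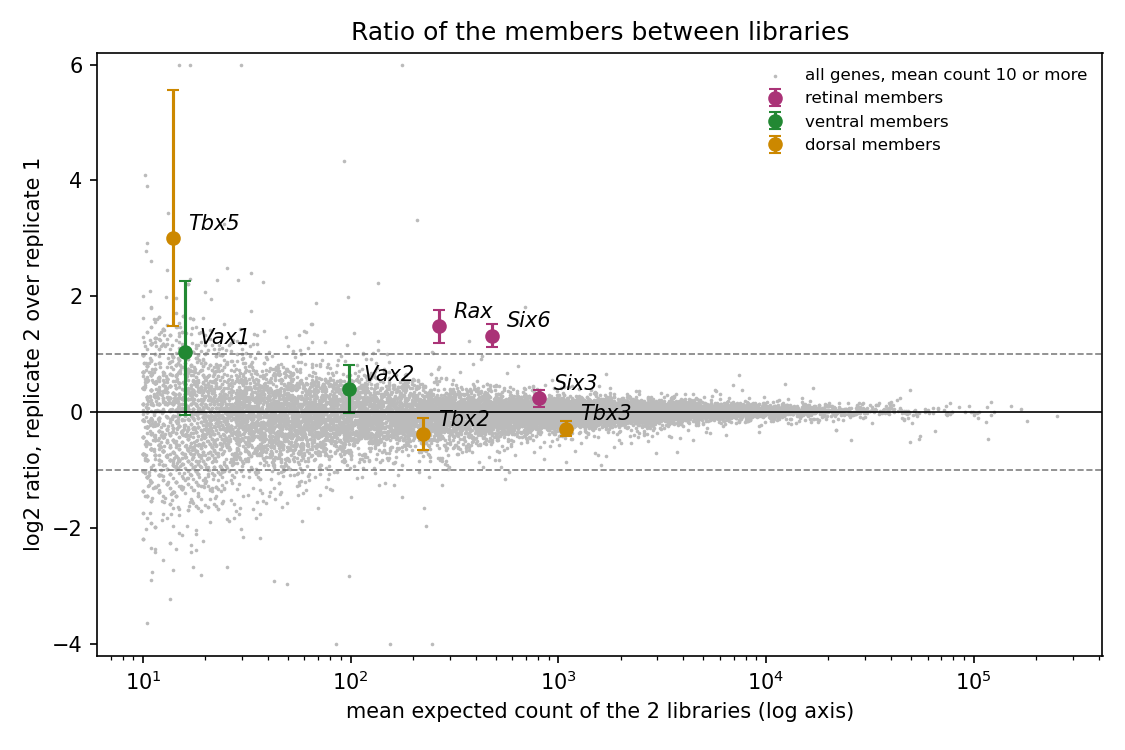
Log2 ratio of replicate 2 over replicate 1 against the mean expected count (log axis), for all genes averaging at least 10 counts (grey, values beyond the axis drawn at its edge) and for the 8 genes in color with 95% exact binomial intervals; dashed lines mark 2-fold. Rax (1.48) and Six6 (1.32) lie outside the cloud of genes of like count, Tbx5 (8.01-fold) has few counts and a wide interval, and Tbx2 (-0.38) and Tbx3 (-0.28) lie on the lower side.

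Promoter sequences of Six3, Six6 and Vax1 were taken from RefSeq (GRCm38.p6), the 3 of the 8 members for which an entry was used. No promoter of Rax, Vax2, Tbx2, Tbx3 or Tbx5 was analysed here. In the 250 bases before the RefSeq start of each, neither the homeodomain core TAATTA, nor the OTX core GGATTA, nor the T-box site AGGTGTGA was found on either strand, and 4.85%, 6.25% and 1.12% of 32817 promoter windows of that length hold them. All 3 windows hold the CCAAT box, the core bound by NF-Y, on either strand: 3 matches for Six3, 2 for Six6 and 2 for Vax1, against at least 1 match in 33.8% of all windows. Each also holds the longer form CCAATCA or its reverse TGATTGG, which includes the CCAAT box and is found in 7.22% of all windows. The CCAAT box was searched after these sequences had been read. The stretches around the longer form are shown 5′ to 3′ on the gene's strand, with that form in capitals and the distance of its first base from the start. They show that Six3, Six6 and Vax1 share this run of bases, and its part in the levels or ratios of these genes was not tested.
Six3, chr17:85620671-85620700, plus strand, 152 bases before the start: gttctcagtatTGATTGGcagggctgacag
Six3, chr17:85620690-85620719, plus strand, 133 bases before the start: agggctgacagTGATTGGcagtggttgccg
Six6, chr12:72939801-72939830, plus strand, 70 bases before the start: agtcgcagcctTGATTGGcagagcagccta
Vax1, chr19:59170568-59170597, minus strand, 189 bases before the start: cgaaagcaagaCCAATCAtttccgtttatt
Vax1, chr19:59170530-59170559, minus strand, 151 bases before the start: aaacccctactTGATTGGggacaaggacag
The Six6 stretch lies in an exon that GENCODE M21 gives to the opposite-strand gene 4930447C04Rik. The Six3 window (85620584 to 85620833) lies inside the M21 span of Six3, 85613608 to 85629302. Its RefSeq start is thus not the start of that span. Both Six3 stretches also lie within the span of the opposite-strand model Gm28528 (85619326 to 85621001). The Vax1 window (59170398 to 59170647) does not adjoin the M21 span of Vax1, whose highest coordinate is 59170056. A match is a description of the letters in these windows and not of a bound site.

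Among the retinal factors, Rax and Six6 differed by more than 2-fold between the 2 pools, and Six3 by 1.18-fold. Rax (ENSMUSG00000024518.3, GRCm38 chromosome 18, 65928277 to 65939787, minus strand) was at 3.47 TPM in replicate 1, from 150.55 expected counts, and at 9.79 TPM in replicate 2, from 383.29. The deposited bounds, 2.88 to 3.97 TPM and 8.65 to 10.57 TPM, do not meet. The ratio was 2.79-fold (95% interval 2.30 to 3.39), and of 2819 genes with a mean count within 2-fold of that of Rax, 0.248% lay as far from 1. In bulk tissue fewer cells of a type and less RNA per cell cannot be told apart, so this ratio says nothing of which of them differed.

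Six6 (ENSMUSG00000021099.6, GRCm38 chromosome 12, 72939892 to 72944899, plus strand) gave 2.71 TPM from 292.84 counts in replicate 1 and 6.85 TPM from 667.9 counts in replicate 2. Its bounds, 2.36 to 2.97 and 6.19 to 7.20 TPM, did not meet either. That is a 2.50-fold ratio (2.18 to 2.88), reached in either direction by 0.117% of 3412 genes of like count. Six3 (ENSMUSG00000038805.10, chromosome 17, 85613608 to 85629302, plus strand) was at 11.09 TPM (780.69 counts) and 13.21 TPM (840.16 counts). It was the most abundant of the 8 genes in each library. Its ratio of 1.18 (1.07 to 1.30) was equalled or passed in distance from 1 by 10.4% of 4169 genes of like count. The Six3 bounds, 10.08 to 11.69 and 12.03 to 13.89 TPM, did not meet either.

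The proportions among the retinal factors therefore differed between the pools. Rax was at 0.313 of the Six3 level in replicate 1 and at 0.741 of it in replicate 2, and in counts that proportion was 2.37-fold higher in replicate 2 (1.90 to 2.94). Six6 was at 0.244 and 0.519 of Six3, a 2.12-fold difference (1.79 to 2.52). The proportion of Rax to Six6, by contrast, was 1.28 and 1.43, and the interval of its change between pools held 1 (1.12-fold, 0.876 to 1.42). Such proportions within a library do not depend on how the libraries were scaled.

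Overlapping transcripts bear on how firmly these levels can be read, since the sources used here do not say whether counting used strand. Six3os1, a noncoding transcript on the strand opposite to Six3, was at 39.73 and 42.32 TPM, which is 3.58 and 3.20 times the Six3 level. GENCODE M21 gives the pair 106 shared exon bases out of 5446 exon bases of Six3. The antisense model Gm28528 shares 168 more, with 6.56 and 12.81 counts. Six3os1 differed 1.09-fold between the pools (1.04 to 1.15), and its proportion to Six3 was 0.926-fold in replicate 2 against replicate 1 (0.828 to 1.04). In GENCODE M21 Rax shares 1604 of 5846 exon bases with the antisense model Raxos1, which drew 5.45 and 7.71 counts. The Rax model counted in the files is shorter, at 1669 bases, and its own overlap was not measured. Six6 shares 192 of 4009 with 4930447C04Rik, which drew 82.16 and 99.1 counts, a 1.32-fold ratio. The counts of Raxos1 and Gm28528 were small beside those of the members they overlap. Reads in the shared bases cannot be assigned to a strand without strand information.

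Rax and Six6 each have a single transcript in the files. Six3 has 3 annotated transcripts. ENSMUST00000175898.3, of 2419 bases, carried 79.31% of the Six3 signal in replicate 1 and 80.55% in replicate 2, and ENSMUST00000176081.2 carried 16.3% and 17.57%. The remaining one, ENSMUST00000162695.2, held 4.39% and 1.88%, from 36.91 and 16.97 counts. The same transcript led in both pools.

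The ventral factors were low, with Vax2 well above Vax1. Vax2 (ENSMUSG00000034777.2, chromosome 6, 83711264 to 83738313, plus strand) was at 2.81 TPM in replicate 1 (89 counts) and at 3.75 TPM in replicate 2 (107 counts). The 1.32-fold ratio had an interval that held 1 (0.988 to 1.77), which with spike-in scaling it did not (log2 0.57, 0.15 to 0.99), and 28.3% of 2551 genes of like count lay as far from 1. Vax1 (ENSMUSG00000006270.7, chromosome 19, 59166187 to 59170056, minus strand) rested on 11 and 21 counts, which gave 0.42 and 0.89 TPM. Its ratio of 2.05 (0.967 to 4.82) also could not be told from 1 by counting error alone, although it could with spike-in scaling (log2 1.21, 0.12 to 2.44), and 18.4% of 2995 genes of like count were as far from 1. The deposited posterior mean, a second estimate of TPM, put Vax1 at 0.75 and 1.28, above the TPM itself, and the deposited bounds ran from 0.27 to 1.39 and from 0.63 to 2.09 TPM. Both estimates leave Vax1 below Vax2 in each library.

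Vax2 exceeded Vax1 6.69-fold in replicate 1 and 4.21-fold in replicate 2, and the change in that proportion, 0.630-fold in counts, had an interval from 0.260 to 1.46. The model of Vax1 in the files is 1044 bases long and that of Vax2 1242. The antisense transcript Vax2os, which overlaps the Vax2 gene but shares none of its exon bases, drew 15.07 and 12.57 counts.

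The dorsal factors fell into 3 tiers, with Tbx3 highest, Tbx2 next and Tbx5 barely detected. Tbx3 (ENSMUSG00000018604.14, chromosome 5, 119670669 to 119684724, plus strand) was at 9.52 TPM from 1241.77 counts in replicate 1 and at 7.88 TPM from 930 counts in replicate 2. Replicate 1 was the higher by 1.21-fold (1.12 to 1.32), and 4.47% of 4583 genes of like count lay as far from 1. Tbx2 (ENSMUSG00000000093.6, chromosome 11, 85832551 to 85841948, plus strand), a close relative of Tbx3, gave 2.7 TPM (264 counts) and 2.1 TPM (185 counts). It too was higher in replicate 1, by 1.30-fold (1.07 to 1.58), a distance reached by 16.9% of 2759 genes of like count. These 2 members were the ones with lower values in replicate 2. For Tbx3 the deposited bounds, 9.19 to 12.05 and 7.545 to 9.67 TPM, overlapped between the libraries. Those of Tbx2, 2.34 to 2.98 and 1.78 to 2.37 TPM, did too. Scaled by spike-ins, the log2 ratios of Tbx3 (-0.11, interval -0.24 to 0.0096) and Tbx2 (-0.21, -0.49 to 0.067) had intervals that held 0. The proportion of Tbx3 to Tbx2 was 3.53 in replicate 1 and 3.75 in replicate 2, and its change had an interval that held 1 (1.07-fold, 0.865 to 1.32).

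Tbx5 (ENSMUSG00000018263.8) lies 147943 bases beyond the end of Tbx3 on chromosome 5, at 119832668 to 119885219 on the plus strand. It drew 3 counts in replicate 1 and 25 in replicate 2, or 0.03 and 0.26 TPM, with deposited bounds of 0.0073 to 0.074 and 0.167 to 0.368. The ratio was 8.01-fold with a wide counting interval (2.79 to 47.4), and 1.07% of 3001 genes of like count were as far from 1. Its 3 counts equal the number that a count of 0 allows, so ratios to it in replicate 1 are loose. Tbx3 over Tbx5 in TPM was 317 in replicate 1, with a counting interval from 108 to 1541, and 30.3 in replicate 2 (20.4 to 47.1). Tbx5 thus went the other way from Tbx2 and Tbx3 between the pools, and it rested on the fewest counts of the 8 genes.

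For Tbx3 a different transcript led in each library. Of its 5 annotated transcripts, ENSMUST00000121021.3 (4777 bases) led in replicate 1 with 57.31% of the Tbx3 signal and held 41.18% in replicate 2. ENSMUST00000018748.8 (4856 bases) held 33.9% in replicate 1 and led in replicate 2 with 53.16%. Another form, ENSMUST00000079719.6, held 8.64% and 5.66%. The shares are estimates from reads that the transcripts have in common, so with 2 libraries the change of the leading form has no check. The antisense model Tbx3os1, which shares 115 of 6624 exon bases with Tbx3, drew 5.23 and 12 counts.

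As groups, the retinal factors lay above the ventral factors in both pools. Their place against the dorsal factors in replicate 1 depended on the summary used and, for means of logs, on Tbx5. The mean of log2(TPM + 0.1) over Rax, Six3 and Six6 exceeded that over Vax1 and Vax2 by 1.97 in replicate 1 and 2.31 in replicate 2 (mean 2.14 ± 0.24, SD, n = 2). It exceeded the mean over Tbx2, Tbx3 and Tbx5 by 1.67 and 2.39 (2.03 ± 0.51). Both differences were larger than the SD between libraries, which covers only the 2 pools and not the spread among the genes of a group. Dorsal and ventral factors differed by less than that SD, with 0.30 in replicate 1 and -0.079 in replicate 2 (0.11 ± 0.27). Tbx5, with its 3 counts in replicate 1, decided both of these contrasts of means that involve the dorsal factors. Over the 7 members that had 10 or more counts in each library, which leaves Tbx5 out, the retinal minus dorsal contrast was -0.11 in replicate 1 and 1.21 in replicate 2, with opposite signs in the pools. The dorsal minus ventral contrast was then 2.08 and 1.10. That filter keeps Vax1 (11 and 21 counts), whose low level pulls down the ventral mean. In replicate 1 Vax2 (2.81 TPM) stood just above Six6 (2.71), with overlapping bounds. Summed TPM gave 17.27 and 29.85 for the retinal, 3.23 and 4.64 for the ventral and 12.25 and 10.24 for the dorsal factors. The retinal and ventral sums were higher in replicate 2 and the dorsal sum was lower, and Tbx3 made up most of that sum. By these sums, to which Tbx5 added 0.03 and 0.26 TPM, the retinal factors lay above the dorsal factors in both pools.

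**Figure D3:**
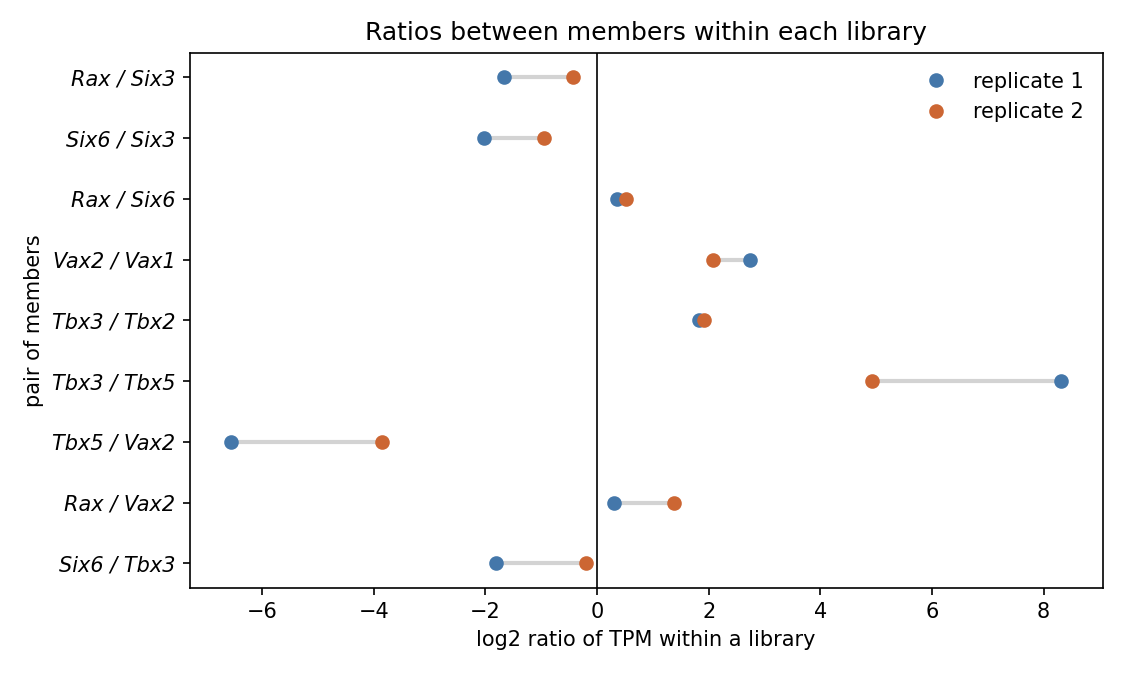
Log2 ratio of TPM between pairs of the 8 genes within replicate 1 (blue) and replicate 2 (orange). The points of Rax over Six6 (1.28 and 1.43) and of Tbx3 over Tbx2 (3.53 and 3.75) nearly coincide, while those of Rax over Six3 (0.313 and 0.741), Six6 over Tbx3 (0.285 and 0.869) and Tbx3 over Tbx5 (317 and 30.3) are apart.

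Across groups, 3 proportions were compared, each of a gene over 2-fold higher in replicate 2 to one that was not. That each differed between the pools beyond counting error follows largely from this choice of pairs. Other pairs across groups were not compared. Rax was 1.23 times Vax2 in replicate 1 and 2.61 times Vax2 in replicate 2, a 2.12-fold change in counts (1.48 to 3.0). Six6 stood at 0.285 of Tbx3 in replicate 1 and at 0.869 in replicate 2, a 3.05-fold change (2.58 to 3.59). Tbx5 stood at 0.0107 of Vax2 and at 0.0693, a 6.93-fold change with an interval from 2.00 to 36.8. Tbx5 and Vax2 are the dorsal and the ventral marker of the retina, and their proportion rests on the 3 Tbx5 counts of replicate 1.

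Genes that work with these factors were read from lists of eye and neighbouring tissues. Of all genes averaging at least 10 counts 3.28% passed 2-fold, so a list of about 10 with no member past it is near that background. Of 7 early eye field partners 6 were at 1 TPM or more in both libraries and none differed by more than 2-fold. Their median log2 ratio was -0.0011, close to the median of -0.0021 over all genes averaging at least 10 counts. Pax6, the paired-box factor of the eye field, was at 64.92 and 67.86 TPM. Nr2e1, an orphan receptor of forebrain and retina, was at 68.62 and 74.86, and Sox11 at 221.67 and 219.02. Otx2, used in forebrain and later in pigment epithelium, was at 56.01 and 48.77. Each of these genes is also expressed widely in the forebrain outside the eye.

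Neural retina genes gave a mixed picture. None of the 8 list genes averaging at least 10 counts passed 2-fold, and their median log2 ratio was 0.10. Mab21l2, needed for retina and lens to grow, was at 7.12 TPM in replicate 1 and 12.58 in replicate 2 (1.75-fold, 1.56 to 1.96). Fgf15, a growth factor of the optic vesicle and other parts of the forebrain, was higher in replicate 1, at 57.5 against 44.46 TPM, and Crb1 was at 0.6 and 0.41. Mab21l2 thus lay on the same side as Rax and Six6, and Fgf15 and Crb1 did not.

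Genes of the pigment epithelium, the other layer of the optic cup, were higher in replicate 2. Of 8 with a mean count of 10 or more all were higher there, 4 of them by more than 2-fold, beside 1.14% of all genes, and their median log2 ratio was 1.16. Its summed level was 14.87 TPM in replicate 1 and 35.76 in replicate 2, and none of its 10 genes was at 0. Pmel, a melanosome matrix protein, was at 5.82 and 20.8 TPM (3.54-fold, 3.13 to 4.02). Tyr, the enzyme that starts melanin synthesis, was at 0.35 and 1.31 TPM (3.68-fold, 2.47 to 5.75), and Tyrp1, a later enzyme of that path, at 0.5 and 1.35 TPM (2.60-fold, 1.76 to 3.99). Gpnmb was at 0.61 and 1.58 TPM (2.58-fold) and Dct at 4.43 and 6.58 (1.47-fold). This list moved with Rax and Six6, and its part in their ratios was not tested.

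Among dorsal eye genes Aldh1a1 stood alone. This retinaldehyde dehydrogenase makes retinoic acid in the dorsal retina, and it was at 0.76 TPM in replicate 1 (41 counts) and at 7.75 TPM in replicate 2 (378 counts), a ratio of 10.0 (7.33 to 14.3). It was the only one of 10 genes of its list past 2-fold, and the list's median log2 ratio was 0.13. Bmp4, the dorsal signal of the optic vesicle, was at 19.24 and 21.86 TPM, and Gdf6, a related ligand, at 0.55 and 0.86. Efnb1 and Efnb2, ephrins of the dorsal retina, were each 1.03-fold higher in replicate 2. Aldh1a1 and Tbx5, which share the dorsal retina as a site of expression, were thus both several times higher in replicate 2, while Tbx2 and Tbx3 were lower there. Reads of Aldh1a1 can be shared with its near copy Aldh1a7, which was at 0.77 and 3.12 TPM.

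None of the 11 optic stalk and ventral eye genes passed 2-fold, and their median log2 ratio was 0.11. Pax2, the paired-box factor of the optic stalk, was at 0.48 and 0.7 TPM, under 1 in both, as Vax1 was. Aldh1a3, the ventral counterpart of Aldh1a1, was at 25.72 and 26.06 TPM, and Bmpr1b, a BMP receptor of the ventral retina, at 7.82 and 9.26. Shh, the ventral midline signal, was at 2.04 and 2.37. The proportion of Aldh1a1 to Aldh1a3 was 0.0295 in replicate 1 and 0.297 in replicate 2, a 10.4-fold change (7.43 to 14.8).

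**Figure D4:**
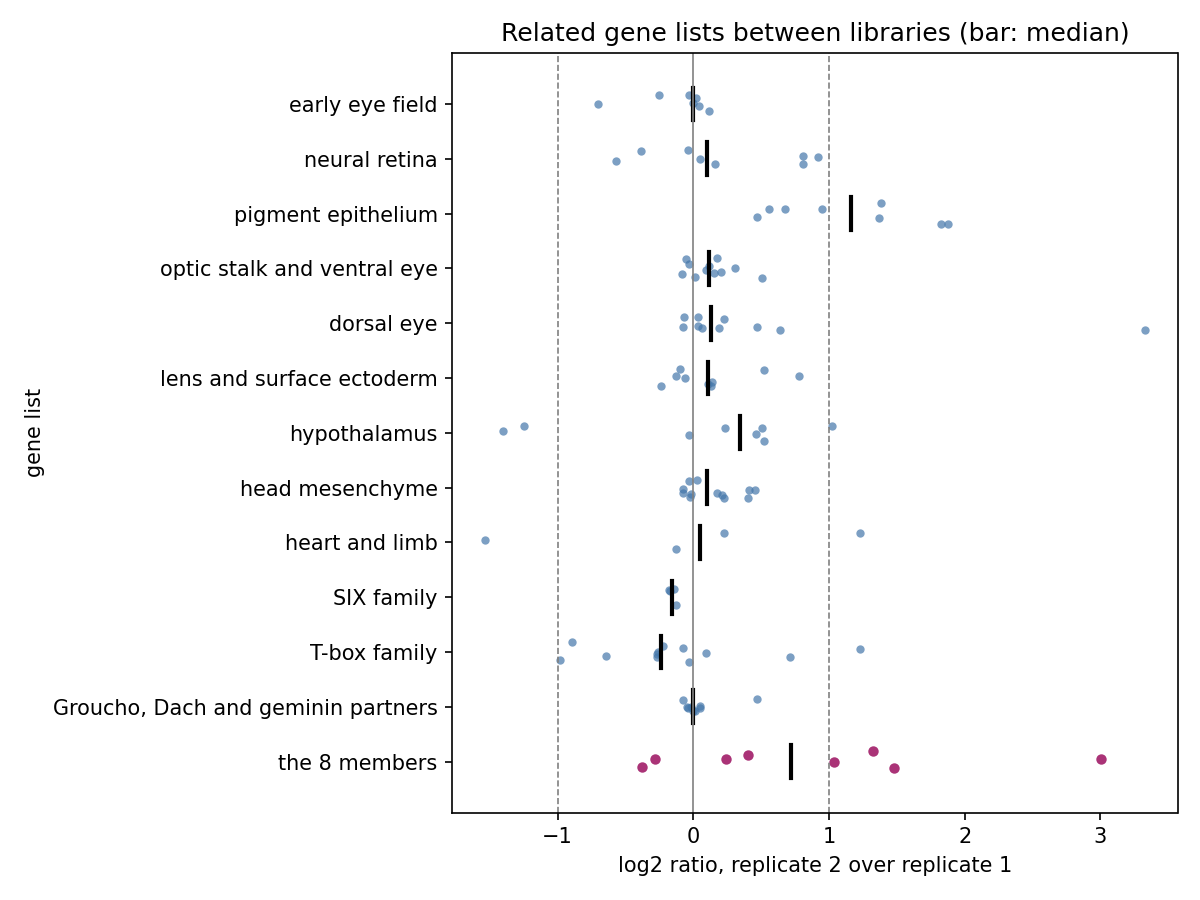
Log2 ratio of replicate 2 over replicate 1 for each gene with a mean count of 10 or more in 12 related lists (blue) and for the 8 members (purple), with a black bar at each median and dashed lines at 2-fold. The pigment epithelium list has its median at 1.16, the members at 0.72, and Aldh1a1 of the dorsal eye list stands apart at 3.33.

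Markers of other tissues that use these factors were examined beside the members. Tbx2 and Tbx3 are also expressed in head mesenchyme. Of 12 genes of that tissue all were detected, with summed levels of 507.38 and 524.62 TPM and none past 2-fold. The part of head mesenchyme in the Tbx2 and Tbx3 values was not tested. In the heart and limb list 8 of 10 genes were under 1 TPM in both libraries, and the summed levels were 33.58 and 29.57 TPM. Most of that was Fgf8, also a signal of the anterior forebrain, at 30.06 and 26.13 TPM. Gata4 and Hand2, both defining heart genes, had no count in either library, and Nkx2-5 had 0 and 1. Hand1 had 0 and 5 counts, Tnnt2 10 and 2, and Myh6 8.14 and 10.46. Myl7, an atrial myosin light chain, had 30 and 32 counts (2.21 and 2.61 TPM), and Tbx20, another heart T-box gene, 18 and 39. Tbx20 was the only one of the 4 list genes averaging at least 10 counts that was over 2-fold higher in replicate 2, and Myl4 was over 2-fold lower. Both, like Tbx5, have a mean count of 10 to under 30, a range in which 18.5% of all genes passed 2-fold. The part of heart tissue in the Tbx5 counts was not tested. Lens and surface ectoderm genes summed to 100.45 and 99.14 TPM with none past 2-fold. Of 8 hypothalamic genes averaging at least 10 counts 1 was over 2-fold higher and 2 were over 2-fold lower in replicate 2. The higher one was Nr5a1, with 22 and 41 counts (2.03-fold, 1.19 to 3.61). Nkx2-1 was at 10.21 and 12.19 TPM and Pomc at 4.97 and 7.2, while Otp (1.36 and 0.47) and Sim1 (0.99 and 0.42), factors of neuroendocrine hypothalamic neurons, were 2.64-fold and 2.37-fold lower in replicate 2. Six6, Tbx2, Tbx3 and Rax are also expressed in the hypothalamus, and its part in their values was not tested.

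The relatives of the members differed in both directions. The other 4 relatives of Six3 and Six6 were all detected and all slightly lower in replicate 2, with a median log2 ratio of -0.16, a direction that spike-in scaling, which adds 0.17 to every log2 ratio, does not keep for the median. Among them, Six2 was at 9.21 and 8.25 TPM, Six4 at 6.43 and 5.93, and Six5 at 6.29 and 5.73. Of 14 other T-box genes 5 were at 1 TPM or more in both libraries, led by Mga at 25.31 and 24.74 TPM and Eomes at 6.52 and 5.31. The median log2 ratio was -0.24 over the 12 that averaged at least 10 counts. Tbx20, with 18 and 39 counts, was the one of these 12 past 2-fold (2.35-fold higher in replicate 2, 1.33 to 4.42). In its count range, 10 to under 30, 18.5% of all genes passed 2-fold. Tbr1, of the first cortical neurons, was at 4.27 and 2.02 (1.97-fold lower in replicate 2). Tbx15, of head mesenchyme and limb, was at 1.22 and 2.35 TPM (1.64-fold). Of 9 partners of Six3 and its relatives, all were detected and none passed 2-fold: Aes, a Groucho-related protein, was at 195.97 and 199.44 TPM, geminin (Gmnn) at 176.33 and 177.57, Tle3 at 36.63 and 38.85 and Tle1 at 33.76 and 33.54.

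The protein-coding genes closest to Rax and Six6 in their ratio were sought among 12669 with a mean count of 50 or more. With 2 libraries the likeness is a single number. The 5 nearest to Rax were Esm1, Trpm1, Slc4a5, Tyrp1 and Gpnmb, within 0.12 of it on the log2 scale. The 5 nearest to Six6 were Col8a1, Gpnmb, Tyrp1, Slc4a5 and Nkx6-2, within 0.09. Trpm1, a cation channel of pigment cells and retinal bipolar cells, had the highest level of these, at 5.62 and 16.57 TPM (2.88-fold). Nkx6-2, a homeodomain factor of ventral neural tube, was at 1.72 and 4.66. In this set 27 genes were higher by more than 2-fold in replicate 2, and by ratio Rax ranked 10 and Six6 ranked 15 among them.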

How the data were processed

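Total RNA sequencing of 2 pools of embryonic day 10.5 mouse forebrain, labelled biological replicates, was analysed from 1 gene table and 1 transcript table per library. The authors deposited expected counts, which are estimated reads per gene and not whole numbers. Deposited TPM, length-adjusted shares of transcripts, cover all rows of a table, with the spike-ins among them. Deposited posterior means are a second estimate of counts and TPM. The sources used here do not state the level of the deposited lower and upper TPM bounds. The deposited transcript percent is the share of a gene's TPM in 1 transcript. Assembly mm10 and annotation M4 are named in the notes deposited with each sample. Columns are named as RSEM names them. The aligner, counting tool, strandedness and priming were not given in the sources used.

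The members and lists were chosen with earlier results of these data known. Ensembl genes (43346 of 69691 rows) were kept, and spike-ins (3.45% and 3.07% of counts) and 26248 numbered rows (56.51 and 45 counts) were left out. The ratio of a gene is (count + 0.5) over the TMM-scaled library size (edgeR 4.0.16, R 4.3.3, from 16637 genes), replicate 2 over replicate 1, with a 95% exact binomial interval on rounded counts. Changes of a proportion have exact conditional intervals (scipy 1.17.1). The ratio calculation was tested on simulated data that held counting error but no variation between pools, so that variation was not checked. With 1 group of 2 libraries no test between conditions exists, so no p-value is given. Group means are of log2(TPM + 0.1), computed from deposited TPM. Coordinates and overlaps are from GENCODE M21 on GRCm38, the assembly of mm10, and symbols matched 42462 genes. Named are the members. Of each list, up to 4 genes of highest mean TPM and up to 3 with a mean count of 50 or more farthest from a ratio of 1 may be named, and overlapping genes and the 5 nearest in ratio to Rax and Six6. Gata4, Hand2, Nkx2-5, Hand1, Tnnt2, Myh6, Nr5a1 and Aldh1a7 were named after their values were seen. Alternatives were other scalings (DESeq2 1.42.0 size factors, totals, spike-ins), pseudocounts, filters, units and leaving out each library. A count of 0 allows up to 3 counts. Some genes of the lists are counted in them but not reported here.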

Additional observations from a re-analysis of the deposited data

How the results depend on the processing

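The dorsal minus ventral contrast (0.11 on the log2 scale) had no stable direction. It was -0.14 with a pseudocount of 0.01 TPM and -0.12 with posterior mean TPM, and leaving out 1 library gave -0.079 without replicate 1 and 0.30 without replicate 2. It was 1.77 with CPM not divided by length, 1.51 with summed TPM and 1.59 with members of 10 or more counts in each library, a filter that removes Tbx5. Retinal minus ventral (2.14) kept its direction and was 1.58 with a pseudocount of 1 TPM, 1.82 with posterior means, 3.33 with CPM, 2.52 with summed TPM, and 1.97 to 2.31 with 1 library left out. None of these settings left out Vax1, at 11 and 21 counts. Retinal minus dorsal (2.03) was 1.24, 1.01 and 0.55 with a pseudocount of 1 TPM, summed TPM and the count filter. Under that filter it was -0.11 in replicate 1 and 1.21 in replicate 2, so its direction differed between pools without Tbx5. It was 1.67 to 2.39 with 1 library left out. At a limit of 5 TPM, 2 in place of 6 members were detected in both libraries. With a mean count of 50 or more, 2 in place of 4 members passed 2-fold, Rax and Six6. With TPM plus 0.1, deposited or posterior mean, 3 did, as Vax1 had log2 ratios of 0.93 and 0.70. Scaling by spike-ins moved every log2 ratio by 0.17. No member changed sign with it, but the intervals of Tbx2 and Tbx3 (-0.11) then held 0 and those of Vax1 and Vax2 no longer did. Six3 stood at 0.41. Tbx5 had a log2 ratio of 1.47 with TPM plus 0.1 and 1.40 with posterior means plus 0.1, and Vax1 had a mean level of 1.02 TPM by posterior means. The cause of these shifts was not tested beyond the construction of each alternative. No paired analysis was possible because there is only 1 group. With 2 libraries the spread between pools rests on a single difference, and depth limits Vax1 and Tbx5 most, at 25 counts or fewer.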

Other observations

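Among the 27 protein-coding genes over 2-fold higher in replicate 2 were further genes known from the eye. Slc38a8, an amino acid transporter whose loss alters the fovea, was at 0.86 TPM in replicate 1 and 3.79 in replicate 2 (4.71-fold). Rdh12, a retinol dehydrogenase of photoreceptors, was at 0.86 and 2.22 TPM (2.31-fold). Cplx3, a complexin of retinal ribbon synapses, was at 0.56 and 1.22 TPM (2.16-fold). Others have no particular tie to the eye, such as Hspa1a, a heat shock protein, at 0.8 and 1.81 TPM, and Mstn, a muscle growth inhibitor, at 1.11 and 2.29. The set was read after its values were seen, and 39 genes were over 2-fold lower. The highest ratio belonged to Gm14440, with 0 counts in replicate 1 and 353.18 in replicate 2, a zinc finger gene model of a family with near copies, so that its counts are uncertain.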
